A study of Mus musculus with 20 samples.

Results

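The response to serotonin (5-hydroxytryptamine) was measured in 2 mouse hypothalamic cell lines, and the genes described here are those whose change differed between the lines. The lines are mHypoE-46 (E46), which the labels call serotonin sensitive, and mHypoA-2/12 (A2/12), which they call unresponsive. For each gene the change in A2/12 (serotonin minus control) was subtracted from the change in E46, so a positive difference means that E46 changed upward relative to A2/12. Of 18820 genes measured, 4142 had a difference at an adjusted p below 0.05, which is 22.0% of the genes. In 2089 of them (11.1%) the E46 change lay above the A2/12 change, and in 2053 (10.9%) below it. From these were taken genes that responded in one line only (135 in E46 and 312 in A2/12) and 328 genes that moved in opposite directions.

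The comparison rests on 16 arrays in 4 groups of 4. Each line gave 4 control arrays and 4 arrays titled as exposed to 100 µg/ml serotonin. No label names a genetic change or a vehicle. Cells of both lines were switched to medium without serum before serotonin was added, and exposure lasted 24 h. Each line is one immortalised line, so a difference between lines is one between these cultures. Whether replicate arrays stand for separate culture dishes is not in the labels. The p-values then measure the spread between these arrays only, which may be technical. A second label crosses the doses of the E46 serotonin arrays: those titled 100 are described as 1 and another 4 titled 1 are described as 100. In A2/12 both labels give 100. With the E46 arrays titled 1 in place of those titled 100, E46 had 2 changed genes, no E46 one-line gene and no opposite gene. Every E46 response below, as a response to 100 µg/ml, therefore depends on the titles being right. So does the comparison of the lines at an equal dose.

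Serotonin acts on a family of receptors that are nearly all coupled to G proteins, through which it alters cyclic AMP, calcium and MAP kinase signalling. Cells end its action by reuptake and by monoamine oxidases. In the hypothalamus it takes part in the control of feeding, where the peptide Npy raises food intake, and the design text names Npy message as what serotonin was tested on.

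Both lines responded widely. In E46 7451 genes changed (39.6%, 3826 up and 3625 down) and in A2/12 8645 changed (45.9%, 4669 up and 3976 down). Of these, 5431 changed in the same direction in both, which is 72.9% of the E46 genes and 62.8% of the A2/12 genes. For 11721 genes (62.3%) the 95% confidence interval of the difference lay within 1.5-fold either way, and the same held for 57.4% of the 12611 genes above background in both lines. Of those 12611 genes 3710 differed (29.4%), which is the share to set beside lists of expressed genes. Where both lines changed the same way and the difference was called, the larger change was in A2/12 for 1244 genes and in E46 for 354. At an unadjusted p below 0.05 the difference held 5926 genes, and 950 of the called genes differed by at least 2-fold, 582 above and 368 below.

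Levels are log2 values, and a background level of 4.35 to 4.45 in the 4 groups was taken from 1157 odorant and pheromone receptor genes. The labelled cell type was checked against marker genes. Of 9 neuron markers measured, 4 lay above background in each group, and the defining Rbfox3 and Snap25 did not (4.16 and 4.12 in E46 controls, 4.18 and 4.14 in A2/12 controls). Of 7 fibroblast and mural markers 6 lay above background in each group. The astrocyte list had 4 of 6 above background in E46 controls and 2 in A2/12 controls. The neuron markers, summed on the linear scale and given as log2, lay at 10.5 to 10.7 in E46 controls, 8.92 to 9.39 in E46 with serotonin, 10.5 to 10.6 in A2/12 controls and 8.84 to 8.93 in A2/12 with serotonin. The fibroblast and mural markers lay at 14 to 14.1, 12.1 to 12.8, 14.3 to 14.5 and 12.7 to 12.8 in the same order. The highest neuron marker was Map2, at 10.43 in E46 controls and 9.62 in A2/12 controls, which changed by -1.79 and -1.92. In A2/12 Stmn2 also carried much of the sum, at 9.14 in A2/12 controls and 5.09 in E46 controls. Its change was -0.33 in E46 and -2.16 in A2/12, and that of Syt1 was -0.07 and -0.80. Both had a called difference. Other members did not all follow, and Gap43 had changes of 0.13 and 0.21. Their part in the results was not tested. One A2/12 control array, replicate 4, held higher macrophage markers than the other 3, with Csf1r at 6.50 against 3.84 to 4.15 and Itgam at 5.54 against 3.54 to 4.08. Without that array and E46 control replicate 3, which had Fabp2 at 5.85 against 3.46 to 3.82, 3563 genes differed. The one-line counts were then 128 and 313, and 263 genes were opposite. The scan names carry position numbers 5, 7 and 9 that occur in every group. With that number as a block 4060 genes differed, and within each number alone 886, 1593 and 73, with 2 or fewer arrays a group. Row letters in the scan names are not shared between the lines, so row and line cannot be told apart, and within each line they also go with treatment. Only rows B and F hold both control and serotonin arrays, 1 control and 2 serotonin arrays each, and the control in row F is the A2/12 array with higher macrophage markers. With row letter as a block, an alternative added after the values were seen, 1505 genes differed, 1396 of them shared with the 4142, and the classes held 70, 256 and 84 genes. In rows B and F alone 1172 differed. None of the 100 genes named here turned direction under either, and with the block 8 lost the call: Rnase2a, Htr2b, Bdnf, Npy1r, Mir301, Mir93, Mir106b and Mir30a. In rows B and F alone 10 did, among them Ahr, Cck, Pou3f3 and Sox2.

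**Figure D1:**
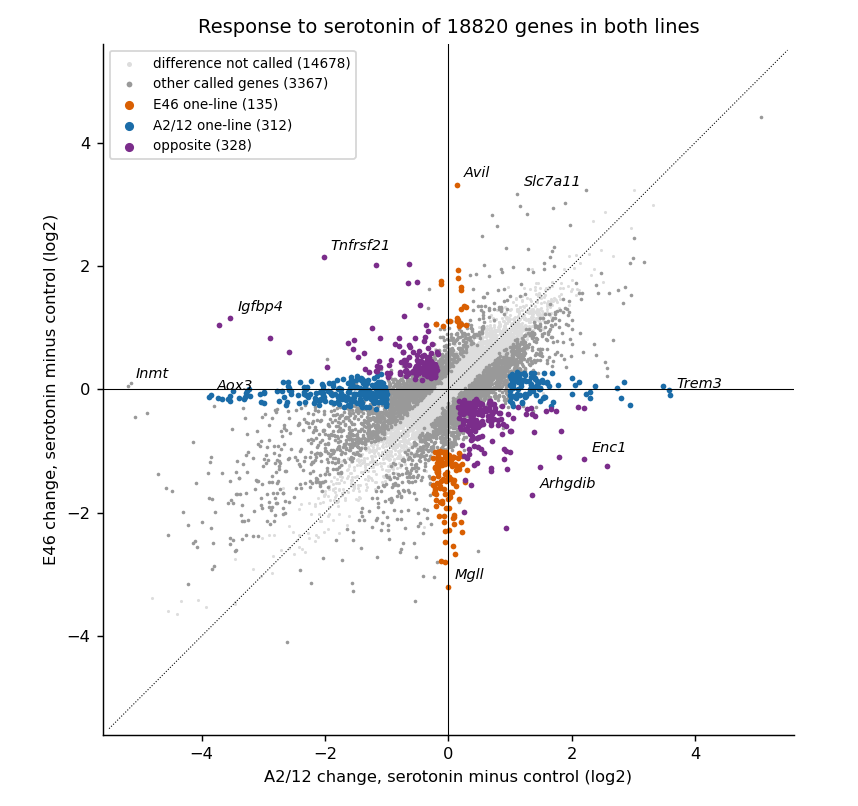
Change with serotonin (serotonin minus control, log2) of 18820 genes in A2/12 on the horizontal axis and in E46 on the vertical axis. Orange points are the 135 E46 one-line genes, blue points the 312 A2/12 one-line genes, purple points the 328 opposite genes, dark grey points the other called genes and pale grey points genes whose difference was not called, and the dotted line marks equal changes.

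A one-line gene had a called difference, a called change of at least 2-fold in one line, and in the other line a change that was not called and whose 95% confidence interval lay within 1.5-fold either way. The E46 class held 0.717% of all genes (22 rises and 113 falls) and the A2/12 class 1.66% (97 rises and 215 falls). Falls were thus the larger part in both lines. Rankings of genes below and in the figures, outside the microRNA section, leave out microRNA and small nucleolar RNA genes and odorant and pheromone receptors. They also leave out ribosomal RNA genes, ribosomal protein pseudogenes and genes with provisional names (Gm with a number, or Rik). At the limit for the difference Capzb was inside with an adjusted p of 0.04988 and Taf11 outside with 0.05002. At the 2-fold limit Actn3 entered with an E46 change of -1.01 and Hspa12a stayed out with -0.99.

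Genes that rose in E46 only were led by Avil, the gene of advillin, a villin-related protein that binds actin. Its E46 level was 5.65, 5.81, 5.79 and 5.82 in the controls and 8.64, 9.41, 9.29 and 9.01 with serotonin. Its A2/12 levels were 5.83, 5.76, 5.75 and 5.79 in the controls and 5.97, 5.76, 5.90 and 6.05 with serotonin. The E46 groups stood far apart and the A2/12 groups overlapped: Avil rose by 3.32 ± 0.14 in E46 (10.0-fold), had a change of 0.14 ± 0.14 in A2/12, and differed by 3.18 ± 0.20 (adjusted p = 4.36e-10). Here and below the value after ± of a change or difference is its standard error.

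Ifit1 encodes an antiviral protein that binds foreign RNA and is induced by interferon. In E46 it lay at 6.39, 6.50, 6.51 and 6.33 in the controls and 8.78, 8.13, 8.14 and 8.44 with serotonin. In A2/12 it was already high, at 10.08, 10.23, 10.09 and 10.20 in the controls and 10.23, 10.37, 10.25 and 10.39 with serotonin. The E46 serotonin arrays lay above all E46 controls yet below every A2/12 array, and the difference was 1.78 ± 0.16 (adjusted p = 5.48e-08). Gsta4, a glutathione transferase that clears lipid peroxidation products, started from similar levels in both lines. The E46 arrays were at 9.51, 9.34, 9.61 and 9.35 in the controls and 11.38, 11.30, 11.11 and 11.22 with serotonin. A2/12 was at 9.17, 8.86, 9.14 and 9.0 in the controls and 9.38, 9.01, 9.39 and 9.05 with serotonin. The E46 groups did not overlap and the A2/12 groups did, with changes of 1.80 ± 0.10 and 0.16 ± 0.10.

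The other large E46-only rises were Rnase2a, an eosinophil-type ribonuclease (1.76 ± 0.17 in E46), the orphan receptor Gpr141 (1.71 ± 0.11) and Pdzd7 (1.65 ± 0.16), a scaffold protein of sensory hair cells. Rnase2a and Gpr141 were below background in A2/12. With row letter as a block the difference of Rnase2a was 1.09 (adjusted p = 0.0957) in place of 1.87 ± 0.25. Of the 22 E46-only rises, 19 were above background in both lines, so in most the silent line had a measurable level.

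Genes that fell in E46 only were led by Mgll, the lipase that breaks down the endocannabinoid 2-arachidonoylglycerol. Its E46 levels were 7.87, 8.29, 8.01 and 8.34 in the controls and 5.39, 4.78, 4.8 and 4.75 with serotonin. In A2/12 it lay below background, at 3.92, 3.95, 3.50 and 3.45 in the controls and 3.90, 3.64, 3.67 and 3.57 with serotonin. It fell by 3.20 ± 0.15 in E46 (9.17-fold lower), and a fall in A2/12 could not have been seen. Adamtsl2, a matrix protein that binds fibrillin, was at 7.64, 7.52, 7.65 and 8.02 in the controls and 5.37, 4.8, 4.58 and 4.90 with serotonin in E46. In A2/12 it was near background, at 4.66, 4.63, 4.56 and 4.64 in the controls and 4.28, 4.8, 4.62 and 4.54 with serotonin. Every E46 serotonin array lay below every E46 control, while the A2/12 groups overlapped. Erg, a transcription factor of the ETS family, was at 8.15, 8.10, 8.11 and 8.14 in the controls and 5.58, 5.23, 5.11 and 5.44 with serotonin in E46. The A2/12 arrays read 4.8, 4.34, 4.41 and 4.21 in the controls and 4.08, 4.18, 4.46 and 4.53 with serotonin. In all 3 genes the E46 groups stood apart and the A2/12 groups overlapped, and the differences were -3.19 ± 0.22, -2.73 ± 0.20 and -2.66 ± 0.18.

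Tspan18, a tetraspanin, fell by 2.67 ± 0.13 in E46, the cartilage matrix protein Matn3 fell by 2.55 ± 0.15 and the fibril-associated collagen Col14a1 by 2.47 ± 0.12. Matn3 was below background in A2/12. Erg and Tspan18 were about at background there, with control means of 4.44 and 4.33, so a fall could hardly have been seen. Of the 113 E46-only falls, 89 were above background in both lines and 24 in E46 alone. A gene counts as above background in a line if either group mean passes it, so the 89 include genes close to background. The median level of the class in controls was 7.24 in E46 and 4.73 in A2/12. Plau, the urokinase that activates plasmin, was well expressed in both, with control means of 6.92 in E46 and 7.74 in A2/12. It fell by 2.27 ± 0.12 in E46 and had a change of 0.01 ± 0.12 in A2/12.

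Genes that rose in A2/12 only were led by Trem3, a receptor of the myeloid TREM family. In E46 it lay below background, at 4.12, 4.08, 3.98 and 4.05 in the controls and 4.07, 3.98, 3.94 and 3.89 with serotonin. On A2/12 arrays it read 3.99, 4.39, 4.32 and 4.50 in the controls and 7.84, 8.13, 7.59 and 7.99 with serotonin. H2-M1 is a non-classical MHC class I gene. E46 was at 3.57, 3.25, 3.43 and 3.31 in the controls and 3.43, 3.36, 3.17 and 3.55 with serotonin. A2/12 was at 3.28, 3.39, 3.40 and 3.28 in the controls and 6.78, 6.75, 6.79 and 7.34 with serotonin. For both genes all 4 A2/12 serotonin arrays lay above every control, and the rises were 3.59 ± 0.10 and 3.58 ± 0.15 (12-fold and 11.9-fold). In A2/12 control replicate 4, the array with higher macrophage markers, Trem3 was at 4.50, and the part of those markers in the Trem3 result was not tested.

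Dusp9, a phosphatase that switches off ERK, was above background in both lines. E46 levels were 5.46, 5.15, 5.12 and 5.11 in the controls and 5.30, 5.15, 5.14 and 5.47 with serotonin. A2/12 levels were 6.87, 6.10, 6.74 and 6.01 in the controls and 9.83, 9.81, 10.03 and 9.94 with serotonin. The A2/12 groups did not overlap and the E46 groups did, with a difference of -3.42 ± 0.21 (adjusted p = 2.62e-10). The lymphatic growth regulator Ccbe1 rose by 2.94 ± 0.13 in A2/12, the collagenase Mmp13 by 2.85 ± 0.16 and the lipid transporter Mfsd2a by 2.38 ± 0.14. Their changes in E46 were -0.25 ± 0.13, 0.12 ± 0.16 and 0.06 ± 0.14. Of the 97 A2/12-only rises, 67 were above background in both lines.

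Genes that fell in A2/12 only were led by Aox3, an aldehyde oxidase. In E46 it lay below background, at 3.73, 3.98, 3.85 and 4.04 in the controls and 3.62, 3.77, 3.97 and 3.74 with serotonin. Levels in A2/12 were 7.75, 7.59, 8.25 and 8.22 in the controls and 4.50, 4.25, 3.68 and 3.88 with serotonin. The A2/12 serotonin arrays lay far below the A2/12 controls, and the E46 groups overlapped. Pde7b, a phosphodiesterase specific for cyclic AMP, was at 4.08, 3.97, 3.98 and 4.03 in the controls and 3.90, 3.83, 4.15 and 3.83 with serotonin in E46. A2/12 levels were 8.17, 8.02, 8.47 and 8.39 in the controls and 4.98, 4.61, 3.93 and 4.13 with serotonin. Both genes dropped to about background in A2/12, by 3.88 ± 0.16 and 3.85 ± 0.17, so the size of the fall is limited by the background. In E46 both were below background, where a fall could not have been seen. Gna14, a G protein alpha subunit of the Gq class, was just above background in E46, at 4.87, 4.50, 4.71 and 4.94 in the controls and 4.49, 4.78, 4.72 and 4.48 with serotonin. Its A2/12 levels were 8.79, 8.29, 8.66 and 8.96 in the controls and 5.32, 5.06, 4.65 and 4.72 with serotonin. The A2/12 groups did not overlap and the E46 groups did, with a difference of 3.6 ± 0.20 (adjusted p = 1.01e-10).

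The secreted glycoprotein Stc1 fell by 3.68 ± 0.18 in A2/12, the complement C1 inhibitor Serping1 by 3.56 ± 0.18 and the coagulation factor subunit F13a1 by 3.55 ± 0.14. Stc1 was below background in E46, where a fall could not have been seen, and Serping1 and F13a1 had E46 control means of 4.75 and 4.70, little above it. Of the 215 A2/12-only falls, 125 were above background in both lines and 90 in A2/12 alone. The median control level of the class was 7.0 in A2/12 and 4.51 in E46. In every one of the 215 the A2/12 groups did not overlap, and in 11 the E46 groups did not overlap either. The class rule asks for a called fall in A2/12 and no call in E46, so it largely sets these counts. Among the 14678 genes whose difference was not called, the groups were apart in 4896 in A2/12 and 4911 in E46.

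**Figure D2:**
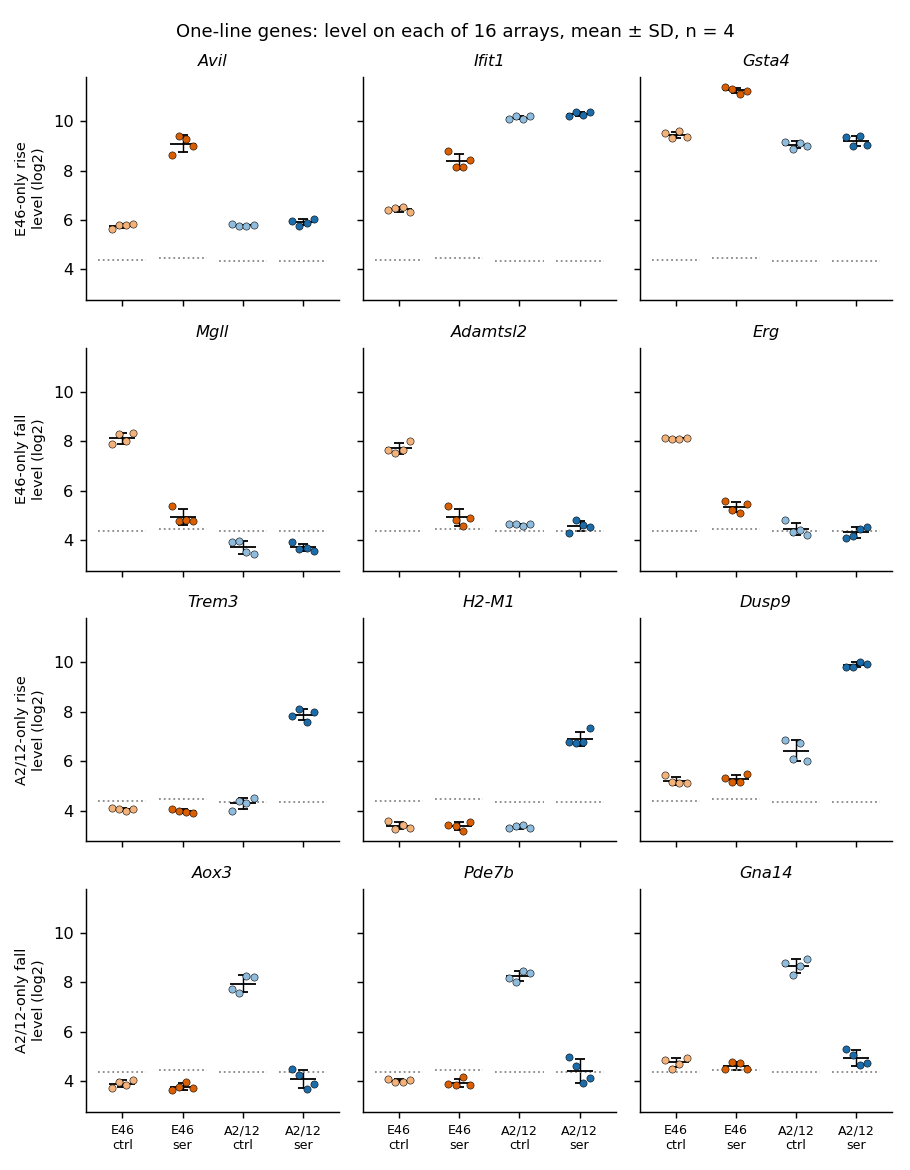
Log2 level on each of 16 arrays (points) for the 3 largest one-line changes of each class, in E46 controls, E46 with serotonin, A2/12 controls and A2/12 with serotonin, with mean ± SD (n = 4) and the background level as a dotted line. In each panel 1 line shows separated groups, and the Ifit1 panel shows A2/12 high in both groups, with controls at 10.08 to 10.23.

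Of the ranked genes the 2 with the largest differences, Inmt and Agtr2, fell outside both classes, as did Elobl. The reason was that the E46 interval reached past 1.5-fold. The fit takes 1 spread per gene over all groups, so the E46 interval also carries the spread of A2/12. With serotonin the SD in A2/12 was 1.51 for Inmt, 0.765 for Agtr2 and 0.652 for Elobl. In E46 with serotonin it was 0.145, 0.101 and 0.198. Inmt, a methyltransferase of tryptamine and other amines, was at 3.86, 4.02, 4.14 and 4.25 in the controls and 4.07, 4.09, 4.34 and 4.02 with serotonin in E46. The A2/12 arrays read 11.80, 11.78, 12.00 and 11.47 in the controls and 8.33, 7.33, 5.52 and 5.13 with serotonin. The A2/12 serotonin arrays lay far below their controls but were spread widely, and the fall of 5.19 ± 0.44 gave a difference of 5.25 ± 0.62 (adjusted p = 1.72e-06). Agtr2, an angiotensin II receptor, fell by 5.14 ± 0.24 in A2/12 with a change of 0.10 ± 0.24 in E46. Inmt and Agtr2 were below background in E46. Elobl, an elongin B-like gene, fell by 5.08 ± 0.23 in A2/12 with a change of -0.46 ± 0.23 in E46.

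Opposite genes had a called difference and called changes of opposite sign, and made up 1.74% of all genes. They are ranked here by the smaller of their 2 changes. In 142 E46 rose and A2/12 fell, and in 186 E46 fell and A2/12 rose. Most of these changes were small: 42 genes changed by at least 1.5-fold in both lines and 11 by at least 2-fold in both. Nearly all were expressed, with 139 of 142 and 181 of 186 above background in both lines.

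Tnfrsf21, a death-domain receptor of the TNF receptor family, came first among those that rose in E46. E46 levels were 4.72, 4.8, 5.01 and 4.89 in the controls and 6.86, 6.89, 7.05 and 7.18 with serotonin. A2/12 levels were 9.59, 9.45, 9.75 and 9.56 in the controls and 7.74, 7.54, 7.65 and 7.33 with serotonin. No groups overlapped within a line, and the gene rose by 2.14 ± 0.10 in E46 (4.4-fold) and fell by 2.02 ± 0.10 in A2/12 (4.06-fold lower), a difference of 4.16 ± 0.14 (adjusted p = 1.40e-13). Igfbp4, a binding protein that holds back insulin-like growth factors, was at 6.32, 6.32, 6.13 and 6.07 in the controls and 7.34, 7.43, 7.35 and 7.35 with serotonin in E46. On A2/12 arrays it read 10.67, 10.41, 10.37 and 10.18 in the controls and 7.26, 7.0, 6.72 and 6.50 with serotonin. The groups were apart in both lines, in opposite directions. Adh1, an alcohol dehydrogenase that also oxidises retinol, was at 6.15, 6.41, 6.31 and 6.06 in the controls and 7.05, 7.36, 7.32 and 7.41 with serotonin in E46. Levels in A2/12 were 9.86, 9.59, 9.68 and 9.44 in the controls and 6.43, 6.02, 5.74 and 5.51 with serotonin. In both genes all groups were apart within a line, A2/12 controls were the highest group, and A2/12 with serotonin lay below every E46 serotonin array.

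The epithelial keratin Krt80 rose by 1.00 ± 0.14 in E46 and fell by 1.23 ± 0.14 in A2/12. Aldh3a1, an aldehyde dehydrogenase, rose by 0.83 ± 0.11 and fell by 2.89 ± 0.11. The sodium-activated potassium channel Kcnt2 rose by 0.83 ± 0.14 and fell by 1.11 ± 0.14.

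In the other direction, Arhgdib, a gene that is abundantly expressed in blood cells, came first. E46 levels were 6.58, 6.94, 6.70 and 6.73 in the controls and 5.34, 4.79, 5.19 and 4.78 with serotonin. A2/12 levels were 7.59, 7.68, 7.72 and 9.07 in the controls and 9.45, 9.36, 9.28 and 9.41 with serotonin. The serotonin arrays lay outside the controls in both lines, but A2/12 control replicate 4, the array with higher macrophage markers, was well above its 3 companions. Without it the difference was -3.42 in place of -3.07 ± 0.32, so the direction and the call did not rest on it. Pgf, placental growth factor of the VEGF family, was at 5.43, 5.93, 6.12 and 6.2 in the controls and 4.63, 4.65, 4.73 and 4.66 with serotonin in E46. A2/12 levels were 9.23, 9.05, 9.16 and 8.98 in the controls and 10.70, 10.57, 10.41 and 10.67 with serotonin. Here too no groups overlapped within a line. Enc1, an actin-associated protein of neural tissue, was at 9.22, 9.26, 9.28 and 9.34 in the controls and 8.29, 8.05, 8.09 and 8.15 with serotonin in E46. Its A2/12 levels were 7.53, 7.20, 7.37 and 7.24 in the controls and 9.50, 9.72, 9.36 and 9.58 with serotonin. Both genes had separate groups in each line, and Enc1 crossed over: the E46 controls lay above the A2/12 controls, and the A2/12 serotonin arrays above the E46 serotonin arrays.

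The matrix glycoprotein Tnc fell by 1.09 ± 0.08 in E46 and rose by 1.80 ± 0.08 in A2/12. The metalloprotease Adam12 fell by 1.01 ± 0.18 and rose by 1.00 ± 0.18, and Gask1b, a Golgi-associated kinase-like protein, fell by 1.00 ± 0.09 and rose by 0.94 ± 0.09.

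**Figure D3:**
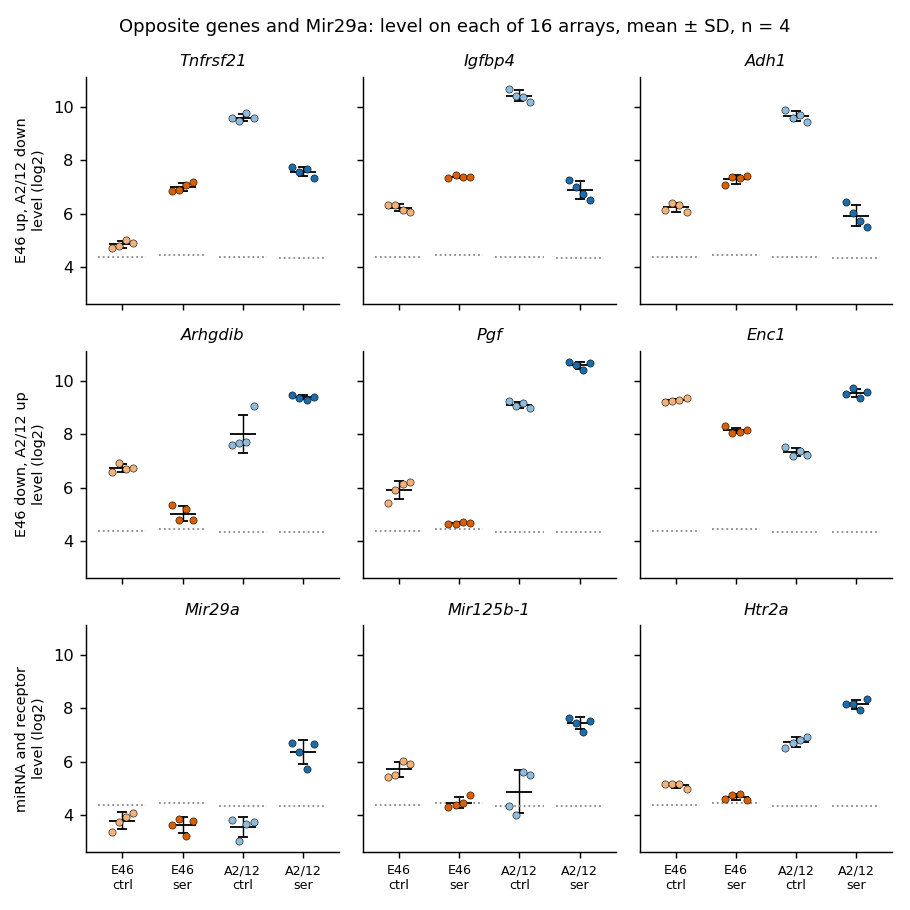
Log2 level on each of 16 arrays (points) with mean ± SD (n = 4) and the background level as a dotted line, for 3 genes up in E46 and down in A2/12 (top), 3 genes down in E46 and up in A2/12 (middle), and the microRNA genes Mir29a and Mir125b-1 and the receptor gene Htr2a (bottom). Mir29a is a one-line gene, Mir125b-1 and Htr2a are opposite genes, and A2/12 control replicate 4 stands apart for Arhgdib at 9.07.

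Of 14 serotonin receptors 6 were above background in each line, and 2 differed (14.3%), a smaller share than the 22.0% of all genes. Of the 6 above background in both lines 1 differed (16.7%), beside 29.4% of all such genes. Htr2a, the 5-HT2A receptor coupled to Gq, was at 5.16, 5.16, 5.16 and 4.97 in the controls and 4.61, 4.76, 4.79 and 4.57 with serotonin in E46. The A2/12 arrays read 6.52, 6.69, 6.83 and 6.92 in the controls and 8.17, 8.16, 7.92 and 8.35 with serotonin. The groups were apart in both lines and the receptor fell by 0.43 ± 0.11 in E46 and rose by 1.41 ± 0.11 in A2/12, with a difference of -1.84 ± 0.15 (adjusted p = 1.61e-08). The related Htr2b differed by -0.57 ± 0.17 but lay below background in both lines. Of 19 amine synthesis, transport and breakdown genes 7 differed (36.8%), 4 above and 3 below. Maob, a monoamine oxidase of the mitochondrial outer membrane, fell by 2.60 ± 0.11 in A2/12, from a mean of 7.75, and was below background in E46. Aldh1a1, an aldehyde dehydrogenase that makes retinoic acid, fell by 2.01 ± 0.11 in A2/12 and had a change of -0.12 ± 0.11 in E46. In E46 Aldh1a1 was about at background, so a fall could hardly have been seen.

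Npy was near background on every array. Its E46 levels were 4.60, 4.44, 4.40 and 4.35 in the controls and 4.65, 4.50, 4.56 and 4.48 with serotonin and its A2/12 levels 4.33, 4.38, 4.20 and 4.35 in the controls and 4.23, 4.34, 4.27 and 4.36 with serotonin. The groups overlapped in both lines, and the difference of 0.12 ± 0.17 (adjusted p = 0.704) has a 95% confidence interval of -0.23 to 0.47. Of 32 hypothalamic neuropeptides 3 differed (9.38%), again below the 22.0% of all genes. Of the 14 above background in both lines 1 differed (7.14%), beside 29.4% of all such genes. Cck, the satiety peptide cholecystokinin, rose by 1.16 ± 0.15 in A2/12 from a background level and had a change of -0.09 ± 0.15 in E46. The neurotrophin Bdnf fell by 0.29 ± 0.09 in E46 and rose by 0.38 ± 0.09 in A2/12. Among 36 receptors for appetite peptides and hormones 3 differed (8.33%), but most were not above background. Of the 8 above background in both lines 2 differed (25%), close to the 29.4% of all such genes. The NPY receptor gene Npy1r fell in both lines, by 1.58 ± 0.10 in E46 and 2.23 ± 0.10 in A2/12.

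Genes that carry receptor signals onward were in 2 lists. Of 29 RGS and G protein subunit genes 11 differed (37.9%), 7 above and 4 below. Gnai1, an inhibitory alpha subunit that lowers cyclic AMP, fell by 2.32 ± 0.11 in A2/12 from a mean of 9.58, with a change of -0.21 ± 0.11 in E46, where it was near background. Gnao1, the neuronal Go subunit, fell in both lines, by 0.93 ± 0.07 in E46 and 2.13 ± 0.07 in A2/12. Of 32 phosphodiesterase and cyclic nucleotide genes 16 differed (50.0%), 11 above and 5 below. Pde2a, which is activated by cyclic GMP, fell by 2.31 ± 0.12 in E46 and had a change of 0.22 ± 0.12 in A2/12, while Pde3b, which is inhibited by cyclic GMP, rose by 0.28 ± 0.08 in E46 and fell by 1.28 ± 0.08 in A2/12. The phosphodiesterase list therefore held one-line genes of both lines, Pde2a in E46 and Pde7b in A2/12. Pde7b was below background in E46, so a fall there could not have been seen.

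Feedback genes of the MAP kinase pathway differed in 13 of 21 cases (61.9%), 6 above and 7 below, against 22.0% of all genes. Of the 20 above background in both lines 13 differed (65%), against 29.4% of all such genes. The median change was 0.02 in E46 and 0.39 in A2/12. Beside Dusp9, the ERK phosphatase Dusp5 fell by 0.35 ± 0.10 in E46 and rose by 1.74 ± 0.10 in A2/12. Spry1, an inhibitor of growth factor signalling, went the other way in A2/12, where it fell by 1.88 ± 0.10, with a change of -0.09 ± 0.10 in E46. Of 44 FGF, EGF, PDGF and VEGF ligands and receptors 23 differed (52.3%), 7 above and 16 below. Pdgfa, which encodes the PDGF A chain, fell by 0.32 ± 0.08 in E46 and rose by 1.28 ± 0.08 in A2/12. The EGF receptor ligand Ereg rose in both, by 0.56 ± 0.10 and 2.40 ± 0.10. Pdgfc, which encodes another PDGF chain, fell in both, by 0.33 ± 0.08 and 1.85 ± 0.08.

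Mitosis genes fell more in A2/12. Of 26 measured, 20 had a called difference (76.9%), and in all 20 the E46 change lay above the A2/12 change. In E46 16 fell and 1 rose, with a median change of -0.38, and in A2/12 25 fell, with a median of -1.01. Cyclin B2 (Ccnb2), which activates the mitotic kinase Cdk1, fell by 0.38 ± 0.07 in E46 and 2.27 ± 0.07 in A2/12. The centromeric histone Cenpa fell by 0.27 ± 0.07 and 1.56 ± 0.07. Cdc20, an activator of the anaphase-promoting complex, fell by 1.15 ± 0.07 in A2/12 only and had a change of 0.07 ± 0.07 in E46. Of 30 DNA replication genes 5 differed (16.7%), all 5 below. Expression cannot tell fewer cells in mitosis from less RNA in each.

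Because these genes moved together, their promoters are shown. Promoters of mitosis genes are known for CCAAT boxes, bound by NF-Y, and for the CHR element. Both were searched on both strands as CCAAT and TTTGAA in the 250 bases before each start in RefSeq (GRCm38.p6), and both motifs were chosen after the values were seen. CCAAT was found in 19 of 22 promoter windows of the mitosis list (86.4%) and TTTGAA in 9 (40.9%), against 34.7% and 13.3% of the 18155 windows of all measured genes that had one. The windows of the 3 genes named above are printed 5′ to 3′ on the strand of the gene, with every match to either motif in capitals: Ccnb2 at chr9:70421555-70421804 on the minus strand, Cenpa at chr5:30666636-30666885 on the plus strand and Cdc20 at chr4:118437344-118437593 on the minus strand.
Ccnb2: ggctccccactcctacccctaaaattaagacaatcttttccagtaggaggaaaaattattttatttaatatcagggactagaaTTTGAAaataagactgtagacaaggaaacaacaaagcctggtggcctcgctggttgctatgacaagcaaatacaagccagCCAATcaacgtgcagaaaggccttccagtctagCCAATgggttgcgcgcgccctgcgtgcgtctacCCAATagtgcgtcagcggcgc
Cenpa: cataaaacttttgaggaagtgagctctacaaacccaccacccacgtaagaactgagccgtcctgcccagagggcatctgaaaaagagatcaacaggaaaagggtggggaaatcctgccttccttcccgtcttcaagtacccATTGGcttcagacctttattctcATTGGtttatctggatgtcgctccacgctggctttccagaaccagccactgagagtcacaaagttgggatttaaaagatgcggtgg
Cdc20: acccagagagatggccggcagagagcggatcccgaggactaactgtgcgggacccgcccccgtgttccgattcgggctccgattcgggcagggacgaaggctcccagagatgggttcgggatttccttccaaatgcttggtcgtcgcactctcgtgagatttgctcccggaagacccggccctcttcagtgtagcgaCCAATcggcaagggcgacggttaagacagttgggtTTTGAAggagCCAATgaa
Ccnb2 held 3 CCAAT matches and 1 TTTGAA match, Cenpa 2 and 0, and Cdc20 2 and 1. A match is a description of the letters and not of a bound site. Cenpa had no TTTGAA in its window.

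Cholesterol genes fell more in E46. Of 20 measured, 15 had a called difference (75.0%), and in all 15 the E46 change lay below the A2/12 change. All 20 fell in E46, with a median of -1.06, and in A2/12 14 fell and 1 rose, with a median of -0.44. Dhcr7, the last reductase of the pathway, fell by 1.40 ± 0.07 in E46 with a change of -0.17 ± 0.07 in A2/12. The sterol carrier Stard4 fell by 1.22 ± 0.07 in E46 with -0.14 ± 0.07 in A2/12. Hsd17b7, which removes a ketone group from sterol intermediates, fell by 1.43 ± 0.10 and 0.29 ± 0.10. CCAAT was in 84.2% of the 19 promoter windows of this list. It was also in 81% of the 21 windows of ER chaperone genes, 66.7% of the 21 of clock genes and 60% of the 30 of DNA replication genes. Of 17 fatty acid synthesis genes 4 differed (23.5%), close to the share of all genes.

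In most detoxification genes that differed, the E46 change lay above the A2/12 change. NRF2 is a transcription factor that induces antioxidant genes, and the aryl hydrocarbon receptor induces enzymes that oxidise foreign compounds. Of 28 NRF2 antioxidant genes 17 differed (60.7%), 15 above and 2 below. Nqo1, a quinone reductase, rose by 1.75 ± 0.09 in E46 and fell by 0.51 ± 0.09 in A2/12. The epoxide hydrolase Ephx1 fell in both lines, by 0.57 ± 0.09 and 2.43 ± 0.09, and the glutathione transferase Gstm1 by 0.35 ± 0.11 and 2.11 ± 0.11. Of 8 aryl hydrocarbon receptor genes 6 differed (75.0%), 5 above and 1 below. Cyp1b1, a cytochrome P450, rose by 0.75 ± 0.09 in E46 and fell by 1.63 ± 0.09 in A2/12, in the same directions as Aldh3a1. The receptor gene Ahr itself fell by 1.28 ± 0.09 in E46 and had a change of -0.16 ± 0.09 in A2/12. The antioxidant motif TGACNNNGC, searched on both strands, was in 20.7% of the 29 windows of the NRF2 list and in 10.9% of all windows. It was in 30.4% of the 23 windows of immediate early genes and 28.6% of the 21 of ER chaperone genes, so it did not set the NRF2 list apart.

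Interferon-stimulated genes differed in 20 of 40 cases (50.0%), 16 above and 4 below. In E46 18 rose and 6 fell, and in A2/12 13 rose and 15 fell. Beside Ifit1, the guanylate-binding protein Gbp2 rose by 0.59 ± 0.15 in E46 and fell by 1.36 ± 0.15 in A2/12. Iigp1, an immunity-related GTPase, fell by 2.35 ± 0.19 in A2/12 and was below background in E46. Of 23 p53 targets 12 differed (52.2%), 2 above and 10 below. The stress-induced Gadd45g fell by 1.42 ± 0.10 in E46 with 0.00 ± 0.10 in A2/12, and its relative Gadd45b rose by 0.93 ± 0.09 in A2/12 with 0.15 ± 0.09 in E46. Perp, a membrane protein of cell junctions, fell by 0.93 ± 0.09 in E46 from a mean of 9.76, and in A2/12 it was near background.

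Genes of the extracellular matrix and growth factor supply also differed. Of 27 matrix proteases and inhibitors 21 differed (77.8%), 12 above and 9 below. The metalloprotease Mmp19 fell by 1.86 ± 0.10 in A2/12 only, with 0.11 ± 0.10 in E46, and Mmp16, a membrane-bound metalloprotease, fell by 0.82 ± 0.08 in E46 and 2.28 ± 0.08 in A2/12. The small leucine-rich proteoglycans, which bind collagen, had the medians furthest apart of all 45 lists, -0.82 in E46 and -2.21 in A2/12. Of these 15 genes 5 differed (33.3%, beside 22.0% of all genes), 4 above and 1 below, and the median of their differences was 0.14. Of the 10 above background in both lines 3 differed (30%), beside 29.4% of all such genes. The IGF system differed in 11 of 18 genes (61.1%), 8 above and 3 below, with 3 E46 one-line genes, 3 A2/12 one-line genes and 1 opposite gene, Igfbp4. Stc1 and Stc2 inhibit the protease that frees IGF from its binding proteins. Stc1, which was below background in E46, fell in A2/12, and Stc2 rose in both lines, by 2.97 ± 0.09 in E46 and 1.16 ± 0.09 in A2/12.

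Transcription factors of the forebrain and hypothalamus differed in 10 of 37 cases (27%), close to the 22.0% of all genes, and all 10 lay below. Of the 30 above background in both lines 10 differed (33.3%), beside 29.4% of all such genes. In E46 14 fell and 0 rose, and in A2/12 4 fell and 4 rose. Dlx5, a homeobox factor of the ventral forebrain, fell by 2.07 ± 0.12 in E46 from a mean of 8.00. Pou3f3, a POU factor of neural progenitors, fell by 1.5 ± 0.12 from 9.26, and the stem cell factor Sox2 by 0.90 ± 0.09 from 9.72. In A2/12 controls these 3 genes lay at 4.49, 4.77 and 4.13, near or below background. Of 36 Hox genes 1 differed. Circadian clock genes differed in 9 of 17 cases (52.9%), 7 above and 2 below. The output factor Hlf fell by 2.16 ± 0.10 in A2/12 only. In E46 Hlf was about at background, with means of 4.46 in controls and 4.32 with serotonin, so a fall could hardly have been seen. The period gene Per3 fell by 0.82 ± 0.10 and 2.05 ± 0.10, and the nuclear receptor Rora rose by 1.30 ± 0.09 in E46 with 0.20 ± 0.09 in A2/12.

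The ATF4 and amino acid response list rose in 28 of 30 genes in E46 and in 26 in A2/12, with medians of 1.14 and 1.18. Of its genes 10 differed (33.3%), 6 above and 4 below. All 30 were above background in both lines, and the share is close to the 29.4% of all such genes. The cystine importer Slc7a11 rose by 3.17 ± 0.14 in E46 and 1.11 ± 0.14 in A2/12. Slc7a5, a transporter of large amino acids, rose in E46 only, by 1.11 ± 0.07, with 0.14 ± 0.07 in A2/12. Of 17 aminoacyl-tRNA synthetases 16 rose in each line, with medians of 1.04 and 1.01, and 4 differed (23.5%). Of 28 oxidative phosphorylation genes 4 differed (14.3%), with medians of -0.20 and -0.23. For these lists most genes did not pass the test of the difference, which does not show that their changes were equal.

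**Figure D4:**
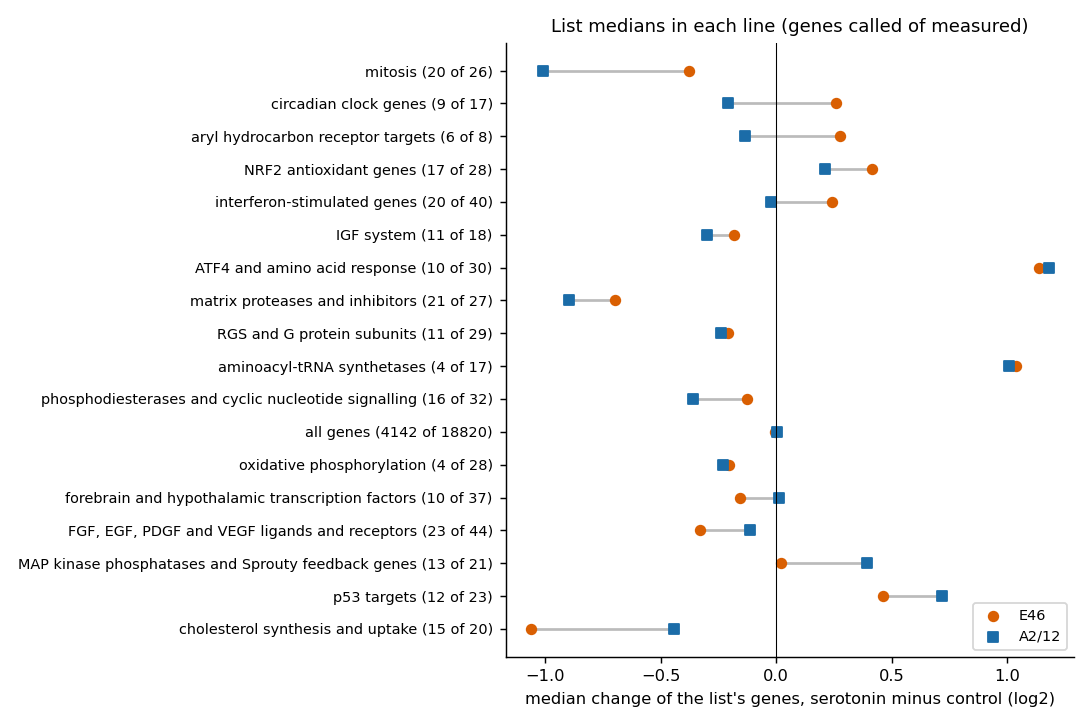
Median change with serotonin (log2) of the genes in 17 lists and of all genes, in E46 (orange circles) and A2/12 (blue squares), with the number of genes whose difference was called of those measured. Among the lists shown the medians lay furthest apart for mitosis (-0.38 and -1.01) and cholesterol (-1.06 and -0.44), and close together for the ATF4 list (1.14 and 1.18).

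MicroRNA genes formed a group of their own among the A2/12-only rises, and were singled out after their values were seen. A microRNA silences messenger RNAs that match its seed, bases 2 to 8. The arrays read RNA from the microRNA's gene and not the mature strand by itself. Of 303 microRNA genes measured 44 differed (14.5%), fewer than the 22.0% of all genes, but 38 of the 44 lay below, so that A2/12 changed upward relative to E46. In A2/12 60 rose and 23 fell, and in E46 13 rose and 30 fell. There were 11 A2/12-only rises, 2 A2/12-only falls and no E46 one-line gene. Some of the 44 are close neighbours and may not be separate responses, and shared transcripts were not tested. Mature strands of Mir29a and Mir29b-1 lie from chr6:31062673 and chr6:31063025, and those of Mir221 and Mir222 from chrX:19146307 and chrX:19146901. Those of Mir93 and Mir106b lie from chr5:138165574 and chr5:138165787. Mir17, Mir18 and Mir19b-1 lie from chr14:115043684, chr14:115043867 and chr14:115044320. Of the 44, 40 had a mature sequence in RefSeq (GRCm38.p6), and those that share a seed with another differing gene and are described below are printed with the seed in capitals.
miR-29a-3p: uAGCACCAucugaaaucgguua
miR-29b-3p: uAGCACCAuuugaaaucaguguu
miR-221-3p: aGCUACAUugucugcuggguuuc
miR-222-3p: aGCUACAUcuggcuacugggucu
miR-130a-3p: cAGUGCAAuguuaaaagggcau
miR-301a-3p: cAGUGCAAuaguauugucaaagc
miR-17-5p: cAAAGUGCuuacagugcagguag
miR-93-5p: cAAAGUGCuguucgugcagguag
miR-106b-5p: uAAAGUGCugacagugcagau
miR-30a-5p: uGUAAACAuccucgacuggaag
miR-30c-5p: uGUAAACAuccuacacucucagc
miR-125b-5p: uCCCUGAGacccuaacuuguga
miR-351-5p: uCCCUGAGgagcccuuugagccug
miR-199a-3p and miR-199b-3p: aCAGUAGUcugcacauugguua

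The miR-29 genes, with the shared seed AGCACCA, rose in A2/12 only. Mir29a in E46 was at 3.36, 3.76, 3.93 and 4.10 in the controls and 3.65, 3.87, 3.23 and 3.80 with serotonin, below background. On A2/12 arrays it read 3.82, 3.02, 3.68 and 3.73 in the controls and 6.70, 6.37, 5.73 and 6.65 with serotonin. All 4 A2/12 serotonin arrays lay above background and above every control, while the E46 groups overlapped, and the difference was -2.95 ± 0.29 (adjusted p = 1.80e-07). Mir29b-1 of the same seed rose by 2.30 ± 0.11 in A2/12. The genes of seed GCUACAU did likewise. Mir222 was at 5.22, 5.90, 5.93 and 5.58 in the controls and 5.42, 6.07, 5.44 and 5.77 with serotonin in E46. Levels in A2/12 were 5.49, 5.15, 5.93 and 6.23 in the controls and 8.52, 8.58, 8.21 and 8.44 with serotonin. It rose by 2.74 ± 0.25 in A2/12, with overlapping groups in E46, and Mir221 rose by 2.30 ± 0.14.

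Mir125b-1 moved in opposite directions. In E46 it was at 5.42, 5.52, 6.02 and 5.91 in the controls and 4.30, 4.40, 4.44 and 4.76 with serotonin. A2/12 levels were 4.35, 4.02, 5.62 and 5.49 in the controls and 7.63, 7.46, 7.11 and 7.54 with serotonin. It fell by 1.24 ± 0.26 in E46 and rose by 2.57 ± 0.26 in A2/12, the groups were apart in both lines, and the A2/12 controls were split into a lower and a higher pair. The mature strand miR-125b-5p is also made from Mir125b-2, which rose by 0.72 ± 0.12 in A2/12 with -0.04 ± 0.12 in E46. The means of Mir125b-2 lay below background in all 4 groups, at 3.26 in A2/12 controls and 3.97 in A2/12 with serotonin. Mir351, of the same seed CCCUGAG, fell by 0.69 ± 0.13 in E46 with 0.18 ± 0.13 in A2/12.

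The other seed groups described here rose by less in A2/12, or fell. Mir130a and Mir301, with seed AGUGCAA, rose by 1.37 ± 0.20 and 1.32 ± 0.19 and had changes of -0.03 ± 0.20 and 0.00 ± 0.19 in E46. In the seed group AAAGUGC, Mir93 rose by 1.39 ± 0.14 in A2/12 only, while Mir17 and Mir106b rose in both lines, by 0.78 ± 0.15 and 0.44 ± 0.16 in E46 and by 1.77 ± 0.15 and 1.41 ± 0.16 in A2/12. In the seed group GUAAACA, Mir30c-2 rose by 1.47 ± 0.19 in A2/12 only, and Mir30a fell by 0.48 ± 0.19 in E46 and rose by 0.73 ± 0.19 in A2/12. Mir199b was below background in E46. The 2 A2/12-only falls, Mir199a-1 and Mir199b, carry the same mature 3p strand with seed CAGUAGU. Mir199a-1 fell by 1.40 ± 0.12 and Mir199b fell by 1.84 ± 0.11. Among differing microRNA genes with a mature sequence, the largest A2/12 rises were in Mir19b-1 (3.17) and Mir18 (2.95). Both also rose in E46, by 2.06 and 2.05. Neither shares a seed with another differing gene, and neither is among the 100 genes followed under the alternatives.

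**Figure D5:**
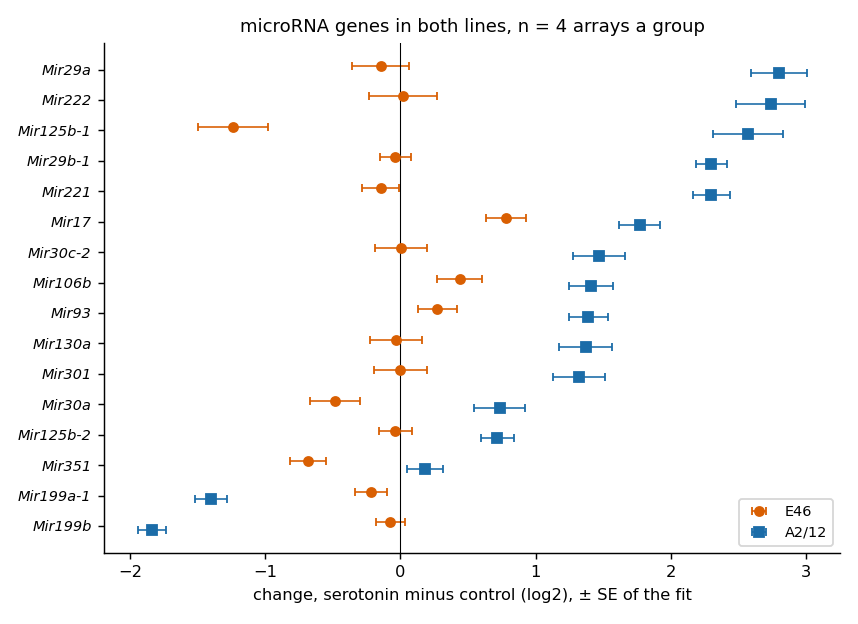
Change with serotonin (serotonin minus control, log2) of 16 microRNA genes in E46 (orange circles) and A2/12 (blue squares), with standard errors from the fit (n = 4 arrays a group). In A2/12 13 of them rose, and the E46 changes of Mir29a, Mir221 and Mir222 lay close to 0.

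Promoter motifs were also counted in the one-line and opposite genes. The AP-1 site, TGACTCA or its reverse TGAGTCA, lay in 8 of the 88 windows of A2/12-only rises (9.09%), from 70 genes, against 3.92% of all windows. The TEAD motif GGAATG was in 19.3% of those windows against 11.5%. In the A2/12-only falls, with 216 windows, the same shares were 3.70% and 12.5%. The cyclic AMP response element TGACGTCA was in 1.14% of the windows of A2/12-only rises, 1.39% of those of A2/12-only falls and none of the 112 of E46-only falls, against 2.07% of all windows. In the opposite genes the AP-1 site was in 6.38% (E46 up) and 4.69% (E46 down) of windows. Higher AP-1 shares were found in some lists, with 26.3% of the 19 windows of matrix proteases and inhibitors and 18.5% of the 27 of chemokines and cytokines. In the E46-only rises, with only 17 windows, TGACNNNGC was in 4 (23.5%) and TGATGNAA in 3 (17.6%), against 10.9% and 2.67% of all windows.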

How the data were processed

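Expression was measured on Affymetrix arrays of total RNA from 20 samples, of which 16 enter the comparison and 4 (E46, titled 1 µg/ml) add to the estimate of spread. The deposited values are log2 expression, made by the authors with RMA per the submitters' processing notes, version not given in the sources used here, and were used unchanged. Background handling in RMA compresses changes near background. Groups and doses follow the titles. Each gene is read by its probe set of highest mean, and 18820 genes were tested.

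One mean per group was fitted with limma 3.58.1 (R 4.3.3), with 15 residual degrees of freedom, and p-values were adjusted by Benjamini-Hochberg over all genes. Scripts were tested on simulated data, and figures drawn with Python 3.11.15 and matplotlib 3.10.9. Named genes are Npy, the 6 largest one-line changes each way, the 6 opposite genes each way with the largest smaller change, the 5 largest differences each way and up to 3 members of a described list with the smallest adjusted p. These rankings left out microRNA genes and the other gene types given above. The microRNA genes were added after their values were seen. The members and the 45 gene lists were chosen with earlier results of these data known. Alternatives changed the normalization, filters, limits, test, blocks, dose labels and arrays left out.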

Additional observations from a re-analysis of the deposited data

Results flagged for a closer look

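Of 96 groups of 4 arrays (24 genes), 7 held an array set apart from the other 3 relative to the range of its group. Chance gives about 1 in 20 groups. Because the rule is relative, a flagged array can be close in level, as for Igfbp4 at 7.43 against 7.34 to 7.35. Mgll was at 5.39 in E46 serotonin replicate 1 and Htr2a at 4.97 in E46 control replicate 4. H2-M1 was at 7.34 in A2/12 serotonin replicate 4, Dusp9 at 5.46 in E46 control replicate 1 and Igfbp4 at 7.43 in E46 serotonin replicate 2. Mir29a was at 3.02 in A2/12 control replicate 2. Arhgdib was at 9.07 in A2/12 control replicate 4, the array in which Csf1r was at 6.50.

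The response differed between the lines in 4142 genes by limma's test of the difference itself, and 99 of the 100 genes named above were among them. The values that follow are E46 change minus A2/12 change (log2).

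Among rises in E46 only, the difference was Avil 3.18, Ifit1 1.78, Gsta4 1.64, Rnase2a 1.87, Gpr141 1.83, Pdzd7 1.46, Slc7a5 0.97 and Rora 1.1. Among falls in E46 only, the difference was Mgll -3.19, Adamtsl2 -2.73, Erg -2.66, Tspan18 -2.79, Matn3 -2.62, Col14a1 -2.41, Pde2a -2.52, Ahr -1.11 and Dhcr7 -1.23. It was Stard4 -1.08, Gadd45g -1.42, Plau -2.28, Dlx5 -2.17 and Pou3f3 -1.77 in others of these. Among rises in A2/12 only, the difference was Trem3 -3.68, H2-M1 -3.58, Dusp9 -3.42, Ccbe1 -3.19, Mmp13 -2.73, Mfsd2a -2.33, Cck -1.24, Mir29a -2.95 and Mir29b-1 -2.34. It was Mir221 -2.44, Mir222 -2.72, Mir130a -1.4, Mir301 -1.32, Mir93 -1.12 and Mir30c-2 -1.46 in others of these. Among falls in A2/12 only, the difference was Aox3 3.75, Pde7b 3.76, Gna14 3.6, Stc1 3.52, Serping1 3.41, F13a1 3.43, Maob 2.72, Aldh1a1 1.89 and Gnai1 2.11. It was Spry1 1.79, Iigp1 2.3, Cdc20 1.22, Mmp19 1.97, Hlf 2.02, Mir199a-1 1.18 and Mir199b 1.76 in others of these. Among genes up in E46 and down in A2/12, the difference was Tnfrsf21 4.16, Igfbp4 4.7, Adh1 4.77, Krt80 2.24, Aldh3a1 3.72, Kcnt2 1.93, Pde3b 1.55, Gbp2 1.96 and Cyp1b1 2.38. It was Nqo1 2.26 in others of these. Among genes down in E46 and up in A2/12, the difference was Arhgdib -3.07, Pgf -2.73, Enc1 -3.33, Tnc -2.89, Adam12 -2.02, Gask1b -1.94, Htr2a -1.84, Bdnf -0.67 and Dusp5 -2.1. It was Pdgfa -1.61, Sox2 -1.12, Mir30a -1.22 and Mir125b-1 -3.81 in others of these. Among genes that changed the same way and more in E46, the difference was Hsd17b7 -1.14, Stc2 1.81 and Slc7a11 2.06. Among genes that changed the same way and more in A2/12, the difference was Npy1r 0.66, Gnao1 1.21, Ereg -1.84, Pdgfc 1.52, Ephx1 1.86, Gstm1 1.76, Ccnb2 1.89, Cenpa 1.29 and Mmp16 1.46. It was Per3 1.23, Mir106b -0.98 and Mir17 -0.99 in others of these. Among genes called in 1 line that missed the one-line limits, the difference was Inmt 5.25, Agtr2 5.25, Elobl 4.62, Htr2b -0.57, Perp -0.94, Gadd45b -0.77, Mir125b-2 -0.76 and Mir351 -0.87.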

How the results depend on the processing

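With the dose labels crossed, 7435 genes differed (3172 above, 4263 below), the E46 one-line, A2/12 one-line and opposite classes held 0, 1887 and 0 genes, and E46 had 2 changed genes. The difference then turned to -0.26 for Avil, -0.24 for Ifit1, -0.12 for Gsta4, -0.44 for Pdzd7, 0.074 for Ahr, 0.15 for Stard4, 0.27 for Hsd17b7, 0.090 for Gadd45g, -1.13 for Stc2, -1.12 for Slc7a11, -0.25 for Slc7a5 and -0.34 for Rora. Within position number 5 alone 886 genes differed (589 above, 297 below), with classes of 63, 145 and 46 and 3183 and 4161 changed genes in E46 and A2/12. Number 7 alone gave 1593 (680 above, 913 below), 110 opposite genes and 3469 changed in E46. Number 9 alone, with 1 array in each of the 4 groups, gave 73 (50 above, 23 below), classes of 0, 0 and 6, 871 and 1864 changed genes, and an Npy difference of -0.034. In number 9 all spread came from the 2 E46 arrays titled 1 with that number, and numbers 5 and 7 also leave groups with 1 array, assumed to vary like the others. The loss of calls within a number is thus set in part by the few arrays. With row letter as a block, added after the values were seen, 1505 genes differed (843 above, 662 below), with 70 and 84 genes in the E46 one-line and opposite classes and 3932 changed genes in E46. Rows B and F alone gave 1172 (676 above, 496 below), 75 E46 one-line genes, 86 opposite genes and 3946 changed in E46.

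Genes above background in both lines gave 181 A2/12 one-line genes. An adjusted p below 0.01 gave 1327 genes below and 173 opposite genes. A test against 1.5-fold gave 790 (494 above, 296 below) and 137 opposite genes. A limit of 1.2-fold on the silent line gave one-line classes of 10 and 33, a response limit of 1.5-fold gave 338 and 756, and requiring 1.5-fold in both lines gave 42 opposite genes.

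Leaving out each replicate in turn gave 3751 to 4257 differing genes (1893 to 2241 above, 1758 to 2340 below), 126 to 141, 305 to 328 and 267 to 347 genes in the classes, and 6773 to 7576 and 8190 to 8762 changed genes in E46 and A2/12. With the replicate block 4364 genes differed, 3985 of them shared with the 4142. The numbers did not pair the samples, with correlations of -0.12 to 0.33 between same-numbered arrays. None of the 100 named genes changed its call or direction when 1 replicate was left out or under the replicate block. Levels near background limit what a fall can show.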
